A study of Homo sapiens with 6 samples.

Results

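The genes described here are the human translation initiation factors, together with the eIF5 mimics *BZW1* and *BZW2*, as they are expressed in MDA-MB-231, an established line of triple-negative breast cancer cells. Membership was set by gene symbol. A gene was taken when its symbol was EIF followed by a digit from 1 to 6, or when it was *BZW1*, *BZW2*, *PABPC1*, *PABPC4*, *PDCD4* or *DENR*. Of 15917 genes listed by the authors, 54 were members, 48 of them by the shared EIF name and 6 by their own names. The EIF pattern also matched 4 kinases of the EIF2AK family and the pseudogenes *EIF1AP1*, *EIF4A2P3* and *EIF5AP4*, and these 7 genes were left out. The family genes *EIF1AY*, *EIF2S3B*, *EIF4E1B* and *EIF4EBP3* were not analysed here.

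The study silenced *RBMS3*, which encodes an RNA-binding protein, in MDA-MB-231 cells kept in serum-supplemented DMEM. Total RNA was sequenced in 6 libraries: 2 biological replicates with a control hairpin (shCTRL, labelled WT), 2 with the hairpin shRBMS3-B3 (RBMS3 KD1) and 2 with shRBMS3-C3 (RBMS3 KD2). All groups carried a lentiviral hairpin plasmid with puromycin resistance, so untransduced cells were not part of the comparison. Libraries were stranded and built from small amounts of total RNA with depletion of ribosomal cDNA, and no selection of poly(A) RNA is described for them.

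The values used here are the authors' mean normalised counts, of which there is 1 per gene, averaged over libraries. The comparison behind the table is described as 2 knockdown against 2 control replicates, fewer than the 6 libraries, and which libraries entered the mean is not named. No value of a single library was analysed, so depth is unknown and no replicate spread stands behind any level. From these means no statement on knockdown against control cells can be made for any member. The check of *RBMS3* in each library was not analysed here for the same reason. All levels, ratios and shares below are descriptions with no test and no error, and their order has no measured precision.

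The cell type was checked against markers of the line. Of 6 genes chosen as markers of this mesenchymal, triple-negative line, 5 were listed. In mean normalised counts per kilobase of transcript, the intermediate filament *VIM* stood at 32189 and the receptor kinase *AXL* at 7502. *CD44* was at 1850 and *EGFR* at 1103. The transcription factor *ZEB1*, at 174, was only at percentile 53.6 of protein-coding genes. *SPARC* was not in the list. Of 8 genes that mark epithelial, hormone-responsive, blood or connective tissue cells, 4 were listed. Their levels were 6.57 for *CDH1*, 32.5 for *COL1A1*, 47.1 for *ERBB3* and 69.3 for *EPCAM*, all under the median of protein-coding genes.

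Translation of most mRNAs starts when the cap-binding factor eIF4E, the scaffold eIF4G and the helicase eIF4A recruit a small ribosomal subunit that already carries eIF3, eIF1, eIF1A, eIF5 and the ternary complex of eIF2, GTP and initiator tRNA. The subunit scans to a start codon, eIF5 promotes GTP hydrolysis by eIF2, and eIF5B joins the large subunit. The exchange factor eIF2B recharges eIF2 with GTP, and kinases that phosphorylate eIF2 block this step under stress. Proteins that bind eIF4E, and *PDCD4*, which binds eIF4A, hold the cap-binding step in check under the control of the mTOR pathway. *BZW1* and *BZW2* resemble the end of eIF5 that binds eIF2 and lack its GTPase-activating part. Many mRNAs of the translation machinery start with a C followed by an unbroken run of pyrimidines, the 5′ terminal oligopyrimidine (TOP) motif, through which mTOR controls their translation.

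The annotated starts of these genes carry such runs in part, and the members whose start is TOP-like are shown first because this sequence feature was not used to choose them. A start was counted as TOP-like when it was a C followed by at least 4 bases that are C or T. Sequences are the RefSeq promoter table's, on GRCh38.p14, from 15 bases before the start to 15 bases from the start on, read 5′ to 3′ on the gene's strand, with the start and its run of pyrimidines in capitals.
EIF2A, chr3:150546772-150546801, plus strand: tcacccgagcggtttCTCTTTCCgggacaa
EIF2D, chr1:206612451-206612480, minus strand: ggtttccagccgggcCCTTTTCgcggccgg
EIF2S3, chrX:24054941-24054970, plus strand: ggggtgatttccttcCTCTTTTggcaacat
EIF3D, chr22:36529152-36529181, minus strand: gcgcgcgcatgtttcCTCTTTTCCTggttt
EIF3F, chr11:7987322-7987351, plus strand: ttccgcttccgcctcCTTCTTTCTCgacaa
EIF3K, chr19:38619173-38619202, plus strand: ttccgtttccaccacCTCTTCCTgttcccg
EIF3M, chr11:32583816-32583845, plus strand: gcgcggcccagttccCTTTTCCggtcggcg
EIF4A2, chr3:186783562-186783591, plus strand: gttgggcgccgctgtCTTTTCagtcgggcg
EIF4B, chr12:53006441-53006470, plus strand: ttgcctcatccgggtCTTTTgcgttctctt

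These 9 were the TOP-like starts among 44 members with a promoter entry, a share of 20.5%. The other 10 members had no matched entry and their starts were not read. They were *EIF2S2*, *EIF3A*, *EIF3CL*, *EIF3E*, *EIF3G*, *EIF3H*, *EIF3L*, *EIF4EBP1*, *PABPC1* and *PABPC4*. Among all 10065 listed protein-coding genes with an entry, 548 had one, a share of 5.44%. Of the 9, 4 encode eIF3 subunits, 3 (*EIF2S3*, *EIF2A* and *EIF2D*) encode a subunit of eIF2 or another protein able to deliver initiator tRNA, and *EIF4A2* and *EIF4B* encode a helicase and its helper. With a run of at least 6 pyrimidines after the C the shares were 15.9% of members and 2.98% of all genes, and *EIF4A2* and *EIF4B* dropped out. When the C could lie within 5 bases of the annotated start, 17 members and 2265 of all genes qualified, 38.6% and 22.5%, so the contrast was narrower under the looser reading. The RefSeq start nearest to the start of the GENCODE transcript was taken, and it coincided with that start in all 44 members except *EIF3C* and *EIF4E3*. Because the nearest start was picked, this does not show where the mRNAs start in these cells. Whether members with such a start were the more abundant mRNAs turned with the length by which the mean normalised count was divided. Per kilobase of transcript the median was 471 in the 9 members with one and 510 in the 35 without. It was 367 against 288 per kilobase of merged exons, 2649 against 1790 per kilobase of coding sequence, and 2130 against 1823 without length.

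**Figure D1:**
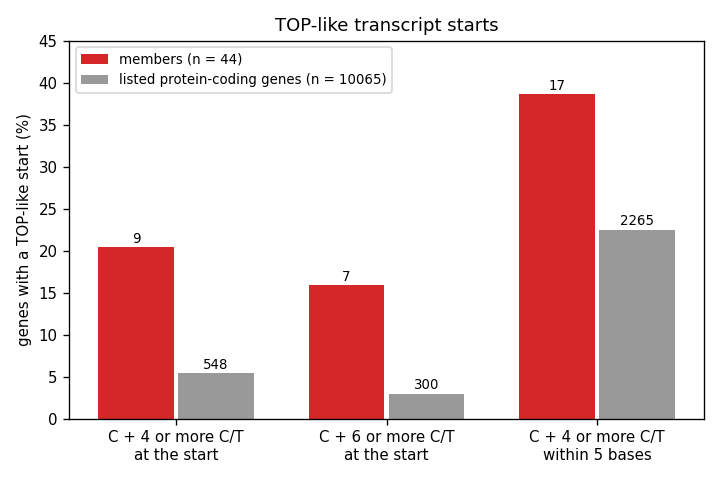
Share of genes with a TOP-like start, in percent, for the 44 members with a RefSeq promoter (red) and for 10065 listed protein-coding genes (grey), under 3 readings of the start; numbers above the bars are genes. The members' bars stand at 20.5%, 15.9% and 38.6% and those of all genes at 5.44%, 2.98% and 22.5%.

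Initiation factors were among the more abundant mRNAs. Long transcripts yield more reads, so each mean normalised count was divided by the length of a representative transcript in kilobases, and this quotient is the level. Levels and their order below are per kilobase of transcript unless another length is named, and some orders turn with another length. The median level of the 54 members was 617, against 152 for 12408 listed protein-coding genes, 4.05 times as high. Of the members, 48 lay above the median of protein-coding genes, 37 in the highest 25%, 23 in the highest 10% and 2 in the highest 1%. The 6 at or below that median were *EIF1AX* (149, just under it), *EIF4ENIF1*, *EIF2A*, *EIF3CL*, *EIF5A2* and *EIF4E3*. Which members were low changed with the length. *EIF1AX* was at percentile 84.6 of protein-coding genes per kilobase of coding sequence. Without length it was at percentile 56.7, while *EIF1B* was at 40.6. The members spanned 2255-fold, from 5.95 for *EIF4E3* to 13409 for *EIF4A1*. Without division by length their mean normalised counts ran from 59.3 to 30069 with a median of 2123. Together they made up 0.339% of listed genes and held 1.07% of the summed mean counts. The 5 members with the highest mean counts, *EIF4G1*, *EIF4A1*, *PABPC1*, *EIF4G2* and *EIF3C*, held 41.6% of the members' sum.

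**Figure D2:**
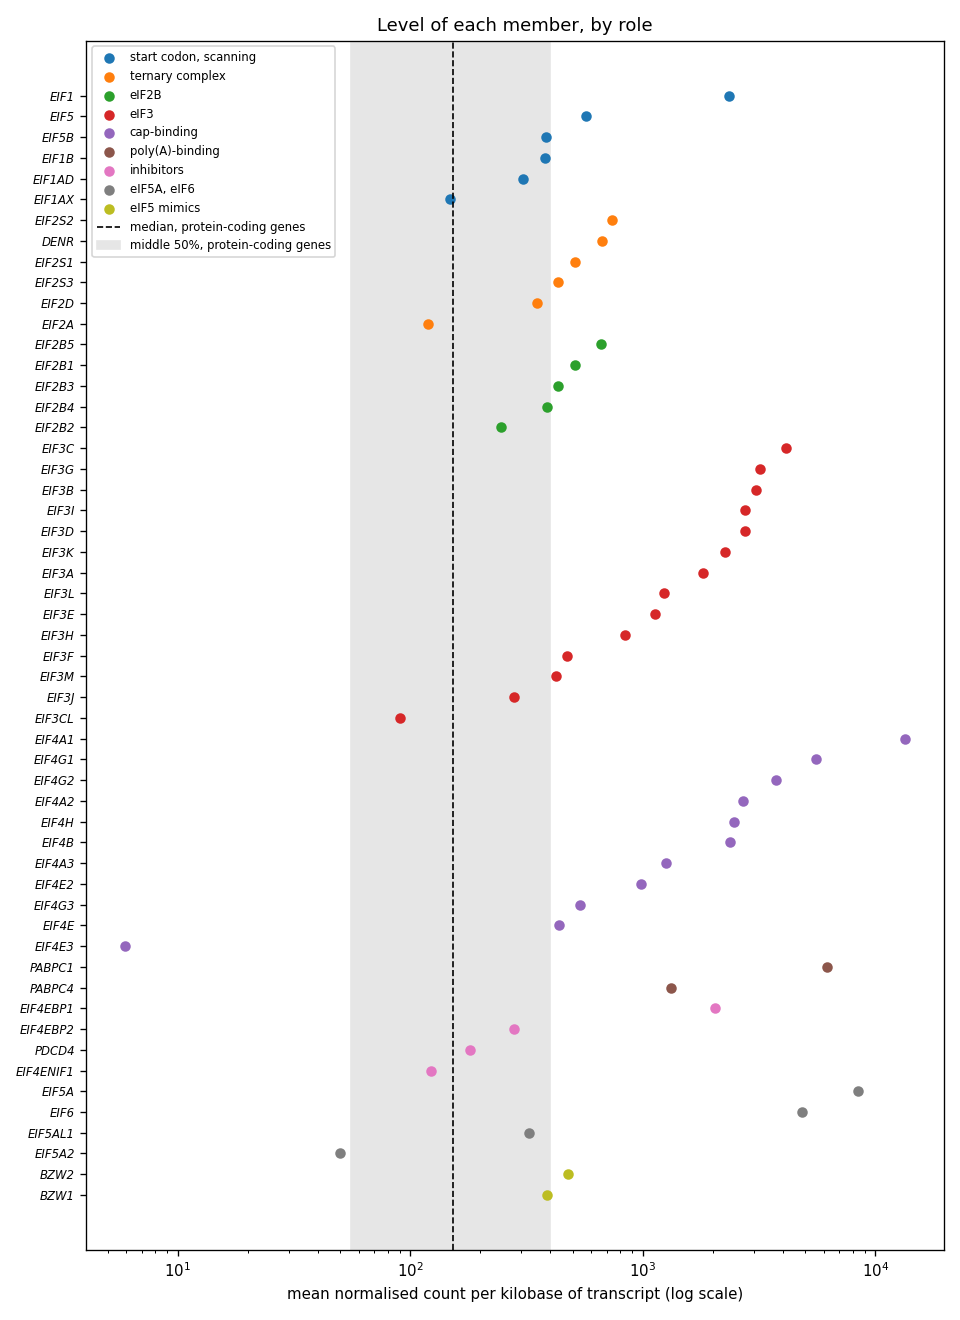
Level of each of the 54 members, in mean normalised count per kilobase of transcript on a log scale, grouped and coloured by role; each point is 1 pooled value with no error. The dashed line is the median of listed protein-coding genes (152) and the grey band their middle 50%, from 55.8 to 398; the cap-binding, eIF3 and eIF5A groups reach furthest to the right, and *EIF4E3* is far to the left.

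The start codon and scanning group holds 6 members placed there by gene symbol. *EIF1*, which makes the scanning ribosome strict about the codon it accepts, had by far the highest level of them at 2345. Its close relative *EIF1B* stood at 381. *EIF5*, the GTPase activator of eIF2, had a level of 570 and *EIF5B*, the GTPase that joins the subunits, 385. *EIF1AX*, which binds the ribosomal A site during scanning, was the lowest of the 6 at 149, and *EIF1AD* stood at 306. Highest and lowest differed 15.8-fold.

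The 3 subunits of eIF2 were close to each other. *EIF2S2* (the beta subunit) had a level of 734, *EIF2S1* (alpha, the subunit that is phosphorylated under stress) 510 and *EIF2S3* (gamma, which binds GTP and the tRNA) 434. *DENR*, which helps to recycle small subunits and to restart translation after short upstream reading frames, stood at 671, and *EIF2D*, a single protein related to the *DENR* complex, at 350. *EIF2A*, an unrelated protein that can deliver initiator tRNA without eIF2, was lowest at 119. The 5 subunits of eIF2B lay within 2.71-fold. *EIF2B5*, the catalytic subunit, had a level of 664 and *EIF2B1* 512, an order that turned per kilobase of coding sequence (785 and 1337) and of merged exons (236 and 338). The others were *EIF2B3* at 433, *EIF2B4* at 386 and *EIF2B2* at 245.

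All 13 subunits of eIF3, the scaffold that holds the small subunit in the initiation complex, were listed. Their median level was 1814 and 9 of them were above 1000, but they were not equal. *EIF3C* (4153), *EIF3G* (3201) and *EIF3B* (3078) were highest, and *EIF3I* (2752), *EIF3D* (2747) and *EIF3K* (2255) followed. *EIF3A*, the largest subunit, stood at 1814, *EIF3L* at 1233 and *EIF3E* at 1125. The lowest were *EIF3H* (835), *EIF3F* (471), *EIF3M* (422) and *EIF3J* (278), the last being a loosely bound subunit. The 14.9-fold range depended on which length was used. Per kilobase of coding sequence it was 4.96-fold, and per kilobase of all the gene's exons merged it was 29.0-fold. *EIF3F* shows the effect, since its representative transcript has a 3′UTR of 5830 bases and its level per kilobase of coding sequence was 3034, close to that of *EIF3D* at 3135.

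The cap-binding group held the extremes of the whole set. *EIF4A1*, the main helicase of the complex, was the highest member per kilobase of transcript at 13409. Per kilobase of coding sequence *EIF5A* exceeded it (22877 against 19306), and by mean normalised count *EIF4G1* did (30069 against 23573). The scaffolds *EIF4G1* and *EIF4G2* stood at 5563 and 3737, the latter encoding a shorter relative that does not bind eIF4E. *EIF4A2* (2699), *EIF4H* (2470) and *EIF4B* (2371), the other eIF4A helicase and a pair of helicase helpers, lay close together by this length. Per kilobase of coding sequence they were further apart, at 4158, 8473 and 4980. *EIF4A3*, the related helicase of the exon junction complex, had a level of 1254. The cap-binding protein itself, *EIF4E*, was at 437. *EIF4E2*, whose product competes for caps and represses translation, was at 987, and *EIF4G3*, another scaffold, at 535. *EIF4E3* was at 5.95, at percentile 1.34 of protein-coding genes.

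The cytoplasmic poly(A)-binding proteins, which contact eIF4G and so link the mRNA's tail to its cap, were both abundant, *PABPC1* at 6233 and *PABPC4* at 1325. Of the inhibitors, *EIF4EBP1*, the mTOR-controlled protein that sequesters eIF4E, stood at 2049, above *EIF4E* itself. Its relative *EIF4EBP2* was at 279, *PDCD4* at 181 and *EIF4ENIF1*, which carries eIF4E into the nucleus and to repressed mRNAs, at 122. *EIF5A*, the hypusine-bearing factor now known mainly for elongation and termination, was the second highest member at 8416, and *EIF6*, which keeps the large subunit from joining too early, was the fifth at 4833. *EIF5A2* was 169-fold below *EIF5A*, at 49.9.

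The eIF5 mimics had middling levels in this set. *BZW1* (chr2:200810594-200827338, plus strand) had a mean normalised count of 2532 and a level of 389. *BZW2* (chr7:16646131-16706523, plus strand) had a mean normalised count of 864 and a level of 479. Coordinates are GENCODE 44 on GRCh38. The coding sequences are of equal length, 1260 bases, and 70.8% identical where they align. Their 3′UTRs differ far more, 5160 bases in *BZW1* and 429 in *BZW2*. Which of them is the more abundant mRNA therefore turned with the length chosen. *BZW1* was 0.812 times *BZW2* per kilobase of transcript, 1.33 times per kilobase of merged exons and 2.93 times per kilobase of coding sequence or with no length at all.

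The same comparison was made for 13 pairs of related members, and 10 kept their direction under all 4 lengths. *EIF4A1* exceeded *EIF4A2* 4.63- to 5.46-fold, although their coding sequences are 77.3% identical. *EIF4G1* exceeded *EIF4G3* 8.79- to 11.9-fold and *PABPC1* exceeded *PABPC4* 4.28- to 4.70-fold. *EIF1* exceeded *EIF1B* 6.15- to 14.6-fold. Wide gaps were those of *EIF4E* over *EIF4E3*, 17.9- to 73.4-fold, *EIF5A* over *EIF5A2*, 38.3- to 169-fold, and, among genes whose reads are hard to tell apart, *EIF3C* over *EIF3CL*, 20.3- to 46.2-fold, and *EIF5A* over *EIF5AL1*, 8.40- to 26.0-fold. Besides *BZW1* and *BZW2*, the pairs that turned were *EIF4E* with *EIF4E2* (0.442 to 2.56) and *EIF4EBP1* with *EIF4EBP2* (0.811 to 7.34). In each of these 3 pairs the member with the longer 3′UTR gained when only coding bases were counted.

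**Figure D3:**
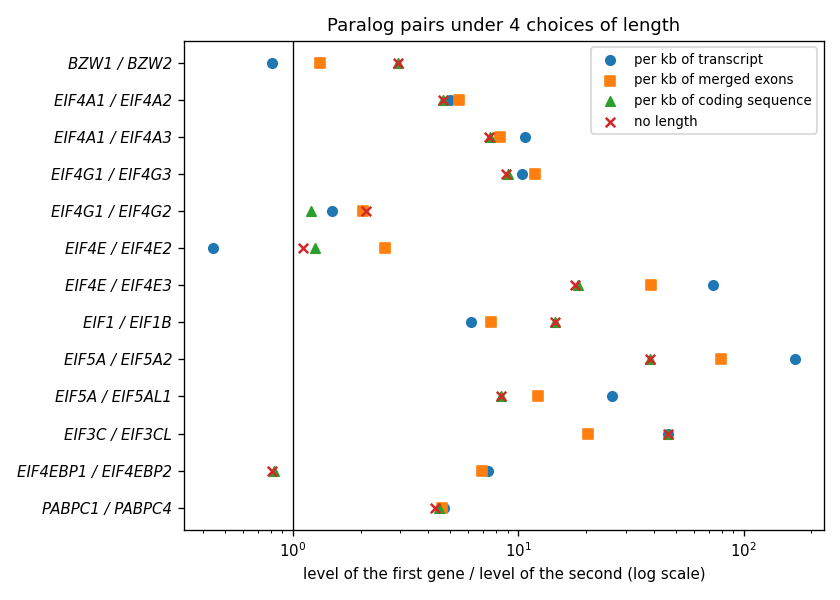
Ratio of levels within 13 pairs of related members, on a log scale, with the level taken per kilobase of the representative transcript (circles), of merged exons (squares), of coding sequence (triangles) or without length (crosses). Points on both sides of the line at 1 mark the 3 pairs whose order turns: *BZW1* with *BZW2*, *EIF4E* with *EIF4E2* and *EIF4EBP1* with *EIF4EBP2*.

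Several members share much of their sequence with other annotated genes, and reads from shared stretches cannot be assigned with certainty. Positions were not compared, so sharing can mean a copy elsewhere or an overlapping gene model at the same locus. Each representative transcript was cut into all its stretches of 31 bases, and the share found in transcripts of other genes was counted. In 13 members no stretch was shared and in 32 it was under 10%. In 5 members over 50% was shared with 1 other gene. *EIF3C* (chr16:28688558-28735727, plus strand) and *EIF3CL* (chr16:28379579-28403841, minus strand) share 99.4% and 99.3% of stretches and their aligned coding sequences are 100% identical, so their reads can hardly be told apart and both values, 46.2-fold apart, are uncertain. *EIF4A1* shares 95.1% with an unnamed long noncoding RNA gene of mean normalised count 94.7 and 83.2% with a readthrough transcript of *SENP3* and *EIF4A1*, which was not in the list. *EIF3L* shares 56.0% with a long noncoding RNA gene of mean normalised count 455. *EIF5A* shares 53.0% with *EIF5AL1*, a single-exon gene on chr10 whose coding sequence is 98.9% identical and whose level was 324, and reads of these genes cannot be assigned with certainty either. Shares were lower for *EIF4B* (31.6% with a pseudogene), *EIF2S3* (30.1% with *EIF2S3B*) and *EIF2S2* (27.4% with *EIF2S2P4*, which was listed at a mean normalised count of 1383). *BZW1* shares 12.2% with *BZW1P2*, listed at 878, and *BZW2*, *EIF4G1* and *EIF4G2* share none. Without the 5 members that share over 50% with 1 other gene, 89.8% of the other 49 lay above the protein-coding median. The share of all 54 was 88.9%.

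Other genes of the translation pathway are given for context, from a list of 35 genes that were all listed, 25 of them above the protein-coding median. Their median level was 416, beside 617 for the members. The list mixes kinases and signalling genes with translation factors, so these medians are of unlike sets. The elongation factors reached further than the members. The 7 genes of elongation had a median of 10293, with *EEF1G* at 21010, *EEF2*, the translocase, at 13366 and *EEF1A1*, which delivers tRNA, at 13206, in the range of *EIF4A1*. Lowest of the 7 were *EEF1A2*, a relative of *EEF1A1*, at 646 and the kinase *EEF2K*, which inhibits *EEF2*, at 126. The 4 eIF2 kinases ran from 53.8 for *EIF2AK3* (PERK) to 596 for *EIF2AK1* (HRI), with 2 above the protein-coding median. Of 6 genes that signal to initiation 5 were above it, led by *LARP1*, the protein that binds TOP motifs, at 1580. Of the remaining groups, 3 of 5 termination and recycling genes, 5 of 8 cap- and tail-bound partners and 4 of 5 genes of hypusine synthesis and helicases were above it, among them *DHPS*, the first enzyme of hypusine synthesis on eIF5A, at 1069.

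**Figure D4:**
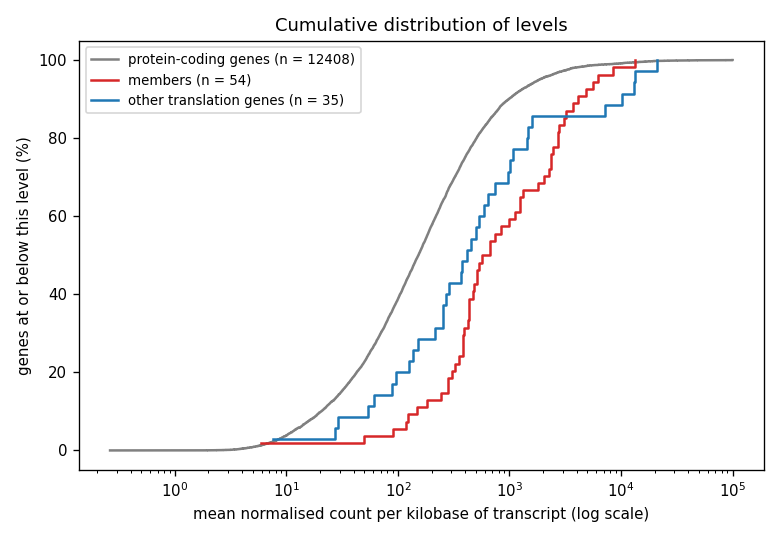
Cumulative share of genes, in percent, at or below each level (mean normalised count per kilobase of transcript, log scale), for the 54 members (red), 35 other translation genes (blue) and 12408 listed protein-coding genes (grey). The red curve lies to the right of the grey one over most of its length, with medians of 617 and 152, and the blue one, with a median of 416, ends furthest right among the translation genes at 21010.

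The members' transcripts were compact. Their median length was 2885.5 bases, against 3439 for listed protein-coding genes, with medians of 1222.5 and 1422 coding bases, 98 and 139 bases of 5′UTR, and 1032 and 1369.5 bases of 3′UTR. They had a median of 11 exons against 9. The genes lie on 17 chromosomes, with 7 on chromosome 3.

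A minority of members hosted small nucleolar RNAs, which guide modification of ribosomal and other RNAs and are cut from introns. Of the 54 members, 8 (14.8%) contained a small nucleolar or small Cajal body RNA gene on their own strand, against 225 of the listed protein-coding genes (1.81%). They contained 16 such genes, of which 11 were listed. *EIF4A1* (chr17:7572824-7579006, plus strand) hosts *SNORA48* (mean normalised count 771), *SNORD10* (6098) and *SNORA67* (333). *EIF4A2* hosts 5, of which *SNORA81* (1563) and *SNORA63* (618) were highest, *SNORA4* (118) and *SNORA63B* (61.1) were low and *SNORD2* was not in the list. *EIF4G2* hosts *SNORD97* (745), *PABPC4* *SNORA55* (120), *EIF5* *SNORA28* (86.3) and *EIF3A* *SNORA19* (52.3). These counts are for short RNAs and are not set against the hosts' levels per kilobase.

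The 3′UTRs were read for an A- and U-rich pattern that the study connected with *RBMS3*, named the AUA pattern here and written in DNA letters as A, G or T, then A or T, then ATA, then A or T, then A. It was searched on the transcript strand with overlapping matches counted. The pattern overlaps the polyadenylation signal AATAAA, so matches that hold AATAAA are given apart. Of the 54 members, 44 (81.5%) had at least 1 match, against 10477 of 12350 listed protein-coding genes with a 3′UTR (84.8%). Leaving out matches that hold AATAAA, the shares were 61.1% and 62.4%. In 11 members every match held AATAAA. Of 317 matches in the members, 107 held AATAAA. The median was 3.5 matches a member against 3, or 2.87 against 2.43 per kilobase of 3′UTR, and the median A+U content was 60.8% against 57.9%.

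The mimics differed in the number of matches. *BZW1* had 15 matches, 11 of them without AATAAA and never more than 2 within 100 bases, while *BZW2* had 1, which holds AATAAA. Per kilobase of 3′UTR this is 2.91 and 2.33, beside the members' median of 2.87. The *BZW2* density rests on 1 match in 429 bases, and no *BZW2* match is free of AATAAA. Examples from both 3′UTRs are shown on hg38, plus strand, 30 bases each, with the match in capitals. The first 3 *BZW1* windows lie 374, 1440 and 2314 bases after the stop codon and do not hold AATAAA in the match, and the last, 33 bases before the transcript's end, does.
BZW1, chr2:200822541-200822570: aaaataatttgTTATAAAaattctgtttgc
BZW1, chr2:200823607-200823636: ggaataacatgTAATATAatttgaaataaa
BZW1, chr2:200824481-200824510: tatttcattctATATATAgatgtttattcc
BZW1, chr2:200827288-200827317: cccttgaaatgGAATAAAatttcatgagac
BZW2, chr7:16706486-16706515: ccagttttttaAAATAAAtggctttttaaa

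A match went with a longer 3′UTR, with a median of 1770 bases in the 44 members that had one and 344 in the 10 that had none, namely *EIF1B*, *EIF2B3*, *EIF2B5*, *EIF3C*, *EIF3CL*, *EIF3G*, *EIF3L*, *EIF4A3*, *EIF6* and *PABPC4*. Over all listed protein-coding genes with a 3′UTR these medians were 1656 and 409 bases. The highest counts were in *EIF3F* (31 in 5830 bases), *EIF4E3* (27 in 9268), *DENR* (26 in 1986) and *EIF2B1* (24 in 1350). Per kilobase of 3′UTR, *EIF3E* (12 in 669 bases) and *PABPC1* (8 in 445) were about as dense as *EIF2B1*, at 17.9, 18.0 and 17.8. In *EIF2B1* 22 of the 24 fell within 100 bases, and in *DENR* 13 of 26, where a run of alternating A and T gives many overlapping matches, so these counts are not as many separate places. One window of each run is shown, *EIF2B1* on the minus strand and *DENR* on the plus strand.
EIF2B1, chr12:123620591-123620620: tatatatatatATATATAtatatatatata
DENR, chr12:122769143-122769172: ccttttaaaatATATATAtatatacacata
*EIF4EBP2* departs the other way, with 2 matches in 6871 bases. The median level was 523 in members with a match and 1243 in those without, against 142 and 244 over all listed protein-coding genes. This level, however, is divided by a length that includes the 3′UTR. Per kilobase of coding sequence the members' medians were 2121 and 2020. They were 331 and 476 per kilobase of merged exons, and 2104 and 3228 without length. The order thus turned with coding length only. By role, matches were found in all 6 ternary complex members, 10 of 11 cap-binding members, 10 of 14 eIF3 members, 3 of 5 eIF2B subunits and all 4 inhibitors. The other roles had them in 5 of 6 start codon and scanning members, 3 of 4 eIF5A and eIF6 members, 1 of 2 poly(A)-binding members and 2 of 2 mimics. The share over all listed protein-coding genes with a 3′UTR was 84.8%.

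**Figure D5:**
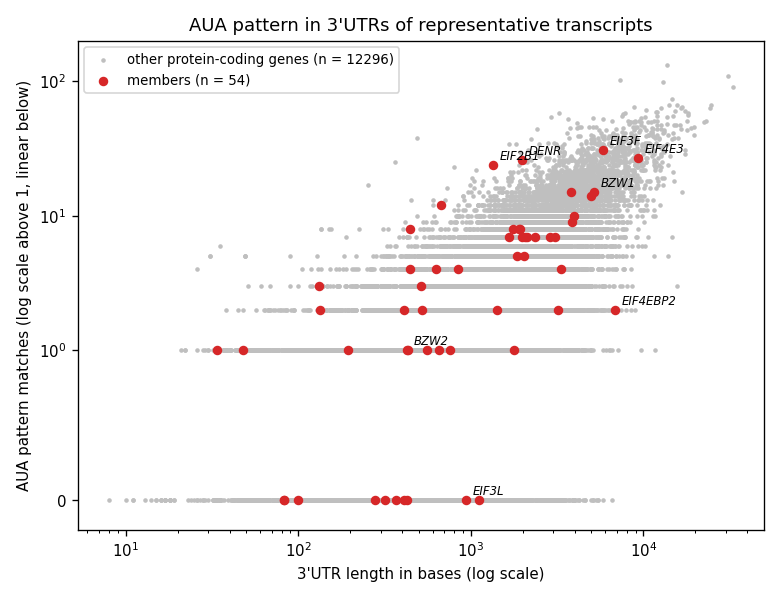
Matches of the AUA pattern in the 3′UTR of each representative transcript (vertical axis, log scale above 1 and linear below) against 3′UTR length in bases (log scale), for the 54 members (red) and the other listed protein-coding genes (grey). Among the labelled genes, *DENR* (26) and *EIF2B1* (24) lie high for their length, *EIF4EBP2* (2) low, and *BZW1* (15) and *BZW2* (1) far apart.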

How the data were processed

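Total RNA of 6 MDA-MB-231 libraries was sequenced by the authors, 2 each for shCTRL, shRBMS3-B3 and shRBMS3-C3. The submitters' processing notes name Salmon, DESeq2 and the build hg38, with no versions or roles. The authors deposited for each of 15917 genes a signal that is a mean normalised count pooled over libraries. This was the only measure used. The other deposited columns hold the authors' own comparison of knockdown with control cells (a log2 fold change with its standard error, test statistic, p-value and adjusted p-value), and were not used. Counts per library were not analysed here, so the planned count test could not be made, and depth is unknown.

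Gene models were those of GENCODE 44 on GRCh38, in which 15829 of the Ensembl identifiers were found. The annotation used by the authors is not given in the sources used here. Each mean count was divided by the kilobases of the representative transcript (MANE Select, otherwise Ensembl canonical, otherwise that with the longest coding sequence). Merged exons, coding length and no length were alternatives. Sequence shared with other genes was counted in stretches of 31 bases, wherever those genes lie. Coding sequences were aligned globally (match 2, mismatch -1, gap opening -5, gap extension -0.5). Transcript starts came from RefSeq promoters on GRCh38.p14, and 3′UTRs from GENCODE transcripts, and 306 printed or tabulated windows equalled hg38. The functions were tested on simulated data. All members were named by role, by rule. Members, roles, gene lists and the pattern were chosen with earlier results of these data known. Python 3.11.15, numpy 2.4.6, pandas 2.3.3, Biopython 1.88 and matplotlib 3.10.9 were used.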

Additional observations from a re-analysis of the deposited data

How the results depend on the processing

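For 11 results 35 alternatives were run. In 19 the value moved by less than 1.5-fold or, for shares, stayed within the 95% Wilson interval, which covers counting of genes only. These included every alternative for the members' median percentile, the share above the protein-coding median, the eIF2B range and the ratio of *EIF4A1* to *EIF4A2*. The median level of 617 became 353 per kilobase of merged exons, 2054 per kilobase of coding sequence and 2123 without length, the change of unit itself. The eIF3 range of 14.9-fold became 29.0-fold with merged exons and 4.96-fold with coding length. The ratio of *BZW1* to *BZW2*, 0.812, turned to 1.33 with merged exons, 2.93 with coding length and 2.93 without length. The TOP-like share of 20.5% became 38.6% within 5 bases of the start. Of 8 alternatives added after seeing the data, any RefSeq start left that share at 20.5%, and leaving out matches that hold AATAAA took the AUA share from 81.5% to 61.1%. With any RefSeq start the share of all listed protein-coding genes rose from 5.44% to 7.42%, so the contrast narrowed. The other 6 were lengths: the median level of members with over that without a TOP-like start, 0.924, turned to 1.28 (merged exons), 1.48 (coding) and 1.17 (no length), and that for the AUA pattern, 0.421, became 0.695, 1.05 (turned) and 0.652.

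No paired analysis was possible because only means over libraries were used. For the same reason the planned count test and its alternatives (TMM against size factors, no filter on low counts, each replicate left out, replicate block) were not run, and no depth or replicate error limits can be given.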
